A study of Mus musculus with 9 samples.

Results

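Of the 56289 genes in the deposited gene table, 10 encode receptor chains for interleukins and related cytokines or the antagonist of interleukin 1 (IL-1). They were chosen by name, with no measured value in the rule but with earlier results of these data known. All 10 were in the table. They are the IL-1 receptor chains Il1r1 and Il1rap and the antagonist Il1rn, the IL-6 family receptor chains Il6ra, Il6st, Osmr and Lifr, and the IL-4 and IL-13 receptor chains Il4ra, Il13ra1 and Il13ra2. Their poly(A) RNA was measured in 9 paired-end libraries from cultures labelled RAW264.7, a mouse macrophage-like cell line of BALB/c origin, with 3 libraries in each of 3 groups. The Con group was untreated, the TNF-α group received recombinant human TNF-α, an inflammatory cytokine, at 20 ng/ml for 24 h, and the TNF-α+WBT group received TNF-α at 20 ng/ml together with WBT at 1.0 μg/ml for 24 h. WBT is Wang Bi tablet, a Chinese patent medicine prepared from herbal and animal ingredients and used for rheumatoid arthritis. The sample labels write WBP for this treatment, which was taken to be the same. All groups shared one cell line and one culture medium, and there was no group with WBT alone. The study asked which transcripts TNF-α altered and which of these WBT altered in turn.

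Levels are given in FPKM, which counts fragments relative to transcript length and to the library total, so that genes of different length can be compared. FPKM does not state the depth, which was estimated at 16970000 to 26286000 fragments per library. Fragments per gene taken from it are approximate and cover counting error only. The labelled cell type was checked against marker genes. Of 12 macrophage markers, 1 lay above 1 FPKM in all 9 libraries (Cd14, mean 5.25 FPKM), and 7, among them Ptprc, Spi1, Itgam and Adgre1, were listed at 0 in every library. Of 10 fibroblast markers, 7 lay above 1 FPKM throughout, as did 4 of 7 Schwann cell markers, Sox10 (mean 91.3 FPKM) and Ngfr (mean 125 FPKM) among them, and 0 of 6 lymphocyte markers. The data thus go against the label, and the cells are called the cultures here. The summed markers also moved with the groups. The summed Schwann cell markers were 327 to 337 FPKM in Con, 223 to 251 FPKM under TNF-α and 244 to 268 FPKM under TNF-α+WBT. The summed fibroblast markers were 3415 to 3663, 3820 to 3897 and 3721 to 3819 FPKM in the same order, and the summed macrophage markers 5.87 to 7.23, 6.86 to 7.85 and 7.09 to 8.18 FPKM. Their part in the results was not tested, and in such bulk RNA a shift in the mix of cells and a shift in RNA per cell cannot be told apart.

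Cytokine receptors of these families work as pairs of chains. Il1r1 binds IL-1 and must recruit Il1rap, the accessory protein, to signal through the adaptor Myd88, and Il1rn encodes a secreted protein that occupies Il1r1 without recruiting Il1rap. Il6st encodes gp130, the signal-transducing chain shared by the IL-6 family, which pairs with itself when IL-6 is held by Il6ra, with Lifr for leukemia inhibitory factor and with Osmr for oncostatin M. These receptors act through JAK kinases and mainly Stat3. Il4ra pairs with Il13ra1 to form the receptor that non-haematopoietic cells use for IL-4 and IL-13, acting through Stat6, while Il13ra2 binds IL-13 and is known as a decoy. In arthritic tissue, IL-1 and IL-6 signalling are known for driving inflammation and matrix breakdown.

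Promoter sequence is shown first for genes on which the results below turn. All 10 genes matched RefSeq promoter windows of GRCm38.p6, 14 windows in all since some genes have several start sites, and the 250 bases before each start were searched. Il1rap, Il6st and Il13ra1 are shown as 3 of the 5 genes whose RNA was higher in both TNF-α groups than in Con. The others, Lifr and Osmr, are not shown. The Lifr windows lay 24781 and 13811 bases before the start of its main transcript, Lifr-203. The Osmr window lay wholly in annotated exons of the gene (250 bases). The windows of Il1r1 are shown because its transcripts use a pair of separate start sites. Each sequence is written 5′ to 3′ on the strand of the gene, and capitals mark motif matches.
Il1rap (chr16:26581455-26581704, plus strand): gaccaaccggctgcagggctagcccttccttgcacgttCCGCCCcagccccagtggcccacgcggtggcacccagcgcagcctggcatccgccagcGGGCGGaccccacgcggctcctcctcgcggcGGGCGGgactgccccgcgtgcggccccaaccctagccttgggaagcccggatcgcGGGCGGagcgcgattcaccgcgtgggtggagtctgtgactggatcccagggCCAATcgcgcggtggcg
Il6st (chr13:112463820-112464069, plus strand): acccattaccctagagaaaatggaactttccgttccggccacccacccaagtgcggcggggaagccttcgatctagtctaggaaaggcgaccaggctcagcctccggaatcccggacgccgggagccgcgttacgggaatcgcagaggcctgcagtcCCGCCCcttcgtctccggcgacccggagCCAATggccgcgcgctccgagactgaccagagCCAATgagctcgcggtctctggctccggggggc
Il13ra1 (chrX:36111858-36112107, plus strand): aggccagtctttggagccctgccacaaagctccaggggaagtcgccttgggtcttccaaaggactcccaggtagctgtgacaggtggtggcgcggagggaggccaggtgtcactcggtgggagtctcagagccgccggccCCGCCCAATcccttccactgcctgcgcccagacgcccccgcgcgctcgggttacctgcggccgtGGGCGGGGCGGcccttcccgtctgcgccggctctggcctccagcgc
Il1r1, upstream start (chr1:40224830-40225079, plus strand): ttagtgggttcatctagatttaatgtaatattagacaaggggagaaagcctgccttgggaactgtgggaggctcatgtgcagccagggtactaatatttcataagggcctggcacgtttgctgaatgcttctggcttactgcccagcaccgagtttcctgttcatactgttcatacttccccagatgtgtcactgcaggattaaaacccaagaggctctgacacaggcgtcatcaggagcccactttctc
Il1r1, downstream start (chr1:40266336-40266585, plus strand): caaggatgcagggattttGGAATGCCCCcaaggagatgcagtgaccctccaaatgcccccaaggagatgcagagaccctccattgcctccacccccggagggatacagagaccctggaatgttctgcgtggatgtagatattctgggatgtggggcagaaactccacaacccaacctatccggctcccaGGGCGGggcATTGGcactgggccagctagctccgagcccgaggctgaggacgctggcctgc
The motifs searched, on both strands, were the NF-κB consensus, the STAT element TTCNNNGAA, the AP-1 element TGANTCA, the GC box GGGCGG and the CCAAT box CCAAT. Matches to the GC box and the CCAAT box can overlap, as they do from position -106 of Il13ra1, where -1 is the base before the start. None of the 3 genes shown that rose had a match to the first 3 of these motifs. Il1rap had 4 GC boxes and 1 CCAAT box, Il6st 1 and 2, and Il13ra1 3 and 1. The downstream window of Il1r1 held the only NF-κB consensus match among the 14 windows, at positions -232 to -223, while its upstream window held no match to any motif. AP-1 elements lay in a window of Il1rn and in that of Il13ra2, and no window had the STAT element. Across 32851 mouse promoter windows of the same length, 7.25% held the NF-κB consensus, 7.02% the STAT element, 6.75% the AP-1 element, 32.7% a GC box and 33.9% a CCAAT box. The windows of Il1rap, Il6st and Il13ra1 were 74.4%, 66% and 70.8% G or C. A match describes letters only, and its absence here says nothing about more distant elements. The bases just before the starts of Lifr-203 and Osmr-201, the main transcripts of these genes, lay outside the windows and were not searched.

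TNF-α vs. Con showed higher RNA of 5 of the 10 genes and lower RNA of none. The 5 were the accessory chain Il1rap, the IL-6 family chains Il6st, Lifr and Osmr, and Il13ra1. The limma test over all 25417 genes measured above 0 FPKM in at least 3 libraries, with a Benjamini-Hochberg adjusted p under 0.05, called 2.94% of them higher. Among the 12684 tested genes averaging at least 1 FPKM it called 5.09% higher, and 8 of the 10 genes belong to this class. The 10 genes were chosen with earlier results of these data known, so these shares describe the background and test nothing. The chains that bind IL-1, IL-6 and IL-4 themselves, Il1r1, Il6ra and Il4ra, were not called, nor were Il1rn and Il13ra2, which were near 0. The median log2 fold change of the 8 expressed genes was 0.42, beside 0.00 for all tested genes. None of the 8 expressed genes passed thresholds like those of the study, a more than 2-fold difference at an unadjusted p under 0.05, which 1.62% of tested genes averaging at least 1 FPKM passed. The fold and p were those of limma on log2(FPKM + 0.1), not the study's own test, and the thresholds were not applied to Il1rn and Il13ra2, whose folds the added 0.1 shrinks. TNF-α+WBT vs. Con called the same 5 genes, all higher, where 2.31% of all tested genes and 4.09% of those averaging at least 1 FPKM were called higher. These comparisons share the Con libraries and are not independent. Log2 fold changes are on the log2(FPKM + 0.1) scale, and the smallest p open to a two-sided exact permutation of 3 against 3 libraries is 0.1.

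**Figure D1:**
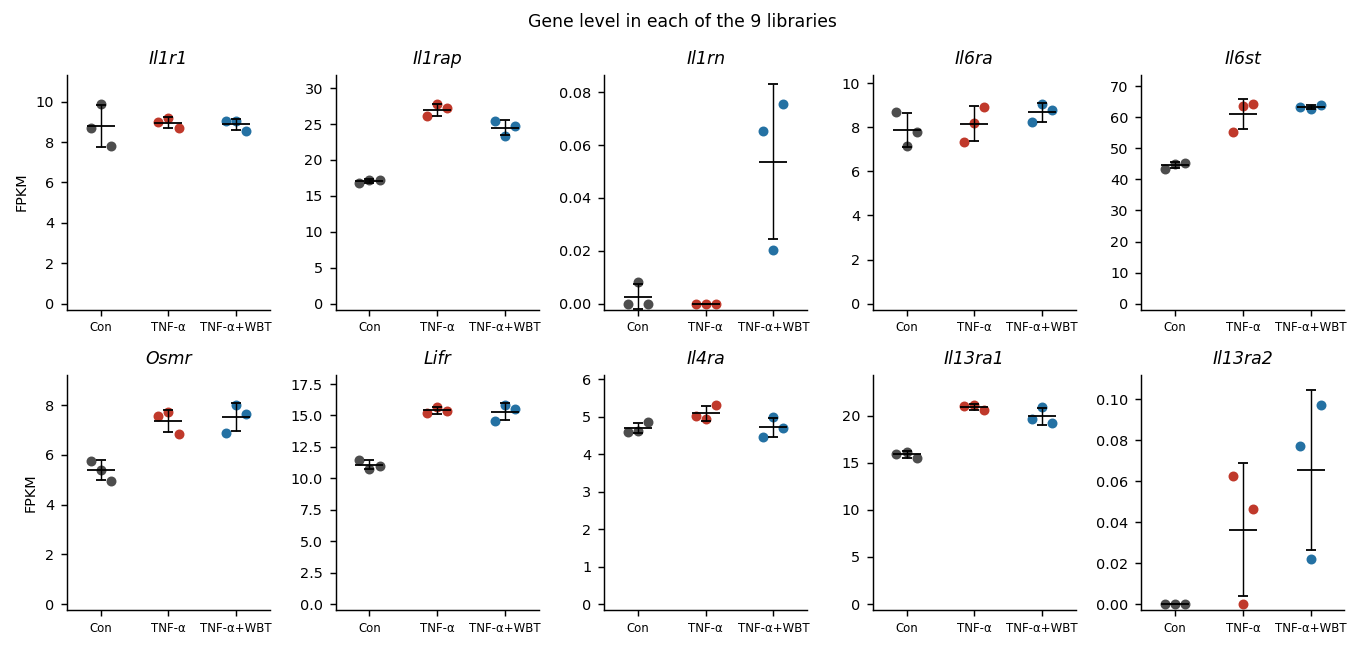
Level in FPKM of the 10 genes in each library, with 3 points per group and a bar for the mean with the SD. Each panel has its own axis. In the panels of Il1rap, Il6st, Osmr, Lifr and Il13ra1 all 6 libraries with TNF-α lie above the 3 Con libraries, and Il1rn and Il13ra2 stay under 0.1 FPKM.

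Il1rap (chromosome 16, 26581704 to 26730117, plus strand, GRCm38) showed the largest change in TNF-α vs. Con among the 8 genes above 1 FPKM. Its level was 16.8, 17.3 and 17.3 FPKM in the Con libraries, 26.1, 27.7 and 27.2 FPKM under TNF-α and 25.4, 23.4 and 24.7 FPKM under TNF-α+WBT. All 6 libraries with TNF-α lay above all Con libraries, and the TNF-α+WBT libraries lay between the other groups without touching either. The mean rose 1.58-fold in TNF-α vs. Con, from 17.1 ± 0.278 to 27.0 ± 0.840 FPKM (SD, n = 3), with a log2 fold change of 0.66 (SE 0.044, 95% CI 0.56 to 0.76) and an adjusted p of 6.08e-05 by limma. The mean rose 1.43-fold in TNF-α+WBT vs. Con, with a log2 fold change of 0.51 (95% CI 0.41 to 0.62) and an adjusted p of 0.00033 by limma. Both calls held in every alternative fit. Exons of Il1rap share 552 bases with the antisense gene Gm20319, which reached at most 0.468 FPKM.

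Il1r1 (chromosome 1, 40225080 to 40317257, plus strand), the chain that binds IL-1, showed no such change. The Con libraries had 8.72, 9.86 and 7.82 FPKM, the TNF-α libraries 8.98, 9.20 and 8.68 FPKM and the TNF-α+WBT libraries 9.06, 9.03 and 8.56 FPKM. All groups overlapped, and the Con libraries spread more widely than the others. The log2 fold change in TNF-α vs. Con was 0.03 (95% CI -0.16 to 0.22, adjusted p = 0.914 by limma), and in TNF-α+WBT vs. Con it was 0.02 (95% CI -0.17 to 0.21, adjusted p = 0.955). Both upper bounds lie below the lower bounds of the changes of Il1rap in the same comparisons.

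Il1rn (chromosome 2, 24336853 to 24351494, plus strand), the IL-1 antagonist, was barely detected. It was listed at 0, 0.00811 and 0 FPKM in Con, at 0 in all 3 TNF-α libraries and at 0.0653, 0.0204 and 0.0754 FPKM under TNF-α+WBT. The highest of these values corresponds to about 3 fragments, no more than a count of 0 allows (3 fragments), so no fold change is given. The TNF-α+WBT libraries lay above all others, with an unadjusted p of 0.00514 and an adjusted p of 0.579 by limma vs. TNF-α, and an adjusted p of 0.120 vs. Con. Il1rn passed the filter of 3 libraries above 0 only through the TNF-α+WBT group, so its p-values are no support for a difference. It was called in TNF-α+WBT vs. Con only when TNF-α+WBT replicate 2, the lowest of that group, was left out (adjusted p = 0.0352 by limma). In every other fit that kept Il1rn, the adjusted limma p of that comparison was 0.0776 to 0.276.

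Il6st (chromosome 13, 112464070 to 112510086, plus strand), the shared signal transducer, had the highest level of the 10 genes in every library. It stood at 43.4, 45.1 and 45.3 FPKM in Con, at 55.3, 63.6 and 64.1 FPKM under TNF-α and at 63.2, 62.7 and 63.8 FPKM under TNF-α+WBT. Con lay below both other groups without overlap, and TNF-α replicate 1 was the lowest of the stimulated libraries. The mean rose 1.37-fold in TNF-α vs. Con (log2 fold change 0.45, SE 0.056, 95% CI 0.32 to 0.58, adjusted p = 0.00228 by limma). It rose 1.42-fold in TNF-α+WBT vs. Con (log2 fold change 0.50, 95% CI 0.38 to 0.63, adjusted p = 0.00146 by limma).

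Lifr (chromosome 15, 7090614 to 7197489, plus strand), the partner of Il6st for leukemia inhibitory factor, rose by a like amount. Its levels were 11.5, 10.8 and 11.0 FPKM in Con, 15.2, 15.7 and 15.4 FPKM under TNF-α and 14.5, 15.9 and 15.5 FPKM under TNF-α+WBT. No stimulated library reached down to the Con range. The mean rose 1.39-fold in TNF-α vs. Con (log2 fold change 0.47, SE 0.049, 95% CI 0.36 to 0.59, adjusted p = 0.000832 by limma) and 1.38-fold in TNF-α+WBT vs. Con (log2 fold change 0.46, adjusted p = 0.00123 by limma).

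Osmr (chromosome 15, 6813577 to 6874969, minus strand), the partner of Il6st for oncostatin M, was lower in level and its call was the least stable of the 5. The libraries had 5.77, 5.40 and 4.96 FPKM in Con, 7.54, 7.71 and 6.85 FPKM under TNF-α and 6.88, 8.02 and 7.66 FPKM under TNF-α+WBT. The groups with TNF-α did not overlap Con. The mean rose 1.37-fold in TNF-α vs. Con (log2 fold change 0.45, SE 0.086, 95% CI 0.25 to 0.64, adjusted p = 0.0215 by limma) and 1.40-fold in TNF-α+WBT vs. Con (log2 fold change 0.48, adjusted p = 0.0194 by limma). The direction held in every fit, though without overlap of the groups, leaving out a library could not reverse it. In TNF-α vs. Con the call was lost without Con replicate 2 (adjusted p = 0.0633), Con replicate 3 (0.0766), TNF-α replicate 1 (0.0757) or TNF-α replicate 2 (0.0839). The other call, TNF-α+WBT vs. Con, was lost without Con replicate 2 (adjusted p = 0.0588), Con replicate 3 (0.0717), TNF-α+WBT replicate 2 (0.0746) or TNF-α+WBT replicate 3 (0.0723), and in a fit of only these 2 groups (0.0581).

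Il6ra (chromosome 3, 89864059 to 89913196, minus strand), the chain that binds IL-6, was not called in any comparison. It measured 8.67, 7.15 and 7.80 FPKM in Con, 7.35, 8.20 and 8.93 FPKM under TNF-α and 8.22, 9.03 and 8.76 FPKM under TNF-α+WBT. The 3 groups overlapped. The log2 fold change was 0.05 in TNF-α vs. Con (95% CI -0.16 to 0.27, adjusted p = 0.869 by limma) and 0.14 in TNF-α+WBT vs. Con (95% CI -0.07 to 0.36, adjusted p = 0.571). An antisense gene, Gm42809, shares 242 exon bases with Il6ra and reached at most 0.814 FPKM.

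Il13ra1 (chromosome X, 36112110 to 36171259, plus strand), the partner of Il4ra in the receptor for IL-4 and IL-13, rose with TNF-α. Its levels were 15.9, 16.2 and 15.5 FPKM in Con, 21.0, 21.2 and 20.6 FPKM under TNF-α and 19.6, 20.9 and 19.2 FPKM under TNF-α+WBT. Con stood apart from both other groups, which overlapped each other. The mean rose 1.32-fold in TNF-α vs. Con (log2 fold change 0.40, SE 0.044, 95% CI 0.30 to 0.50, adjusted p = 0.00118 by limma) and 1.25-fold in TNF-α+WBT vs. Con (log2 fold change 0.32, 95% CI 0.22 to 0.42, adjusted p = 0.00418 by limma). The calls of Il6st, Lifr and Il13ra1 in both comparisons held in every alternative fit.

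Il4ra (chromosome 7, 125552120 to 125579474, plus strand) lay at 4.60, 4.62 and 4.86 FPKM in Con, 5.01, 4.93 and 5.32 FPKM under TNF-α and 4.46, 4.99 and 4.69 FPKM under TNF-α+WBT. The TNF-α libraries were all above the Con libraries, by a margin smaller than the spread within either group, and the TNF-α+WBT libraries overlapped both. The log2 fold change in TNF-α vs. Con was 0.11 (95% CI -0.05 to 0.28, adjusted p = 0.531 by limma) and did not pass the test. It was 0.00 in TNF-α+WBT vs. Con (95% CI -0.16 to 0.17), and its sign depended on the scaling.

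Il13ra2 (chromosome X, 147383476 to 147429192, minus strand), the IL-13 decoy, was listed at 0 in all Con libraries. It had 0.0624, 0 and 0.0464 FPKM under TNF-α and 0.0773, 0.0221 and 0.0973 FPKM under TNF-α+WBT, at most about 3.8 fragments. The adjusted p was 0.460 in TNF-α vs. Con and 0.195 in TNF-α+WBT vs. Con by limma, and no fold change is given against a group listed at 0.

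TNF-α+WBT vs. TNF-α called none of the 10 genes by limma, where 1 of 25417 tested genes (0.00393%) was called. That gene, named after its values were seen, was the ubiquitin ligase gene March8, with a log2 fold change of 1.20 (adjusted p = 0.0131). At an unadjusted p under 0.05, 2 of the 10 genes and 6.31% of tested genes passed. Of these 2, Il1rn was near 0 as described. Il1rap was the other, with a mean 9.35% lower than with TNF-α alone (24.5 ± 1.02 against 27.0 ± 0.840 FPKM, SD, n = 3). The Il1rap libraries of these groups did not overlap, at 23.4 to 25.4 and 26.1 to 27.7 FPKM. The log2 fold change was -0.14 (SE 0.044, 95% CI -0.24 to -0.04), the unadjusted limma p was 0.0114 and the adjusted p was 0.657. The difference was called in none of the 19 alternative fits and ranged from -0.17 to -0.11 on the log2 scale. Since the libraries did not overlap, leaving out a library could not reverse its sign.

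For the other 4 genes that rose with TNF-α, the difference between TNF-α+WBT and TNF-α was small next to its interval. The log2 fold change was 0.05 for Il6st (95% CI -0.07 to 0.18), -0.01 for Lifr (95% CI -0.12 to 0.10), 0.03 for Osmr (95% CI -0.17 to 0.23) and -0.07 for Il13ra1 (95% CI -0.17 to 0.03). The adjusted limma p-values were 0.913, 0.991, 0.984 and 0.844. For the genes not called in TNF-α vs. Con it was -0.01 for Il1r1 (95% CI -0.20 to 0.18), 0.09 for Il6ra (95% CI -0.12 to 0.30) and -0.11 for Il4ra (95% CI -0.27 to 0.06). A miss of the threshold does not show that the groups were alike.

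**Figure D2:**
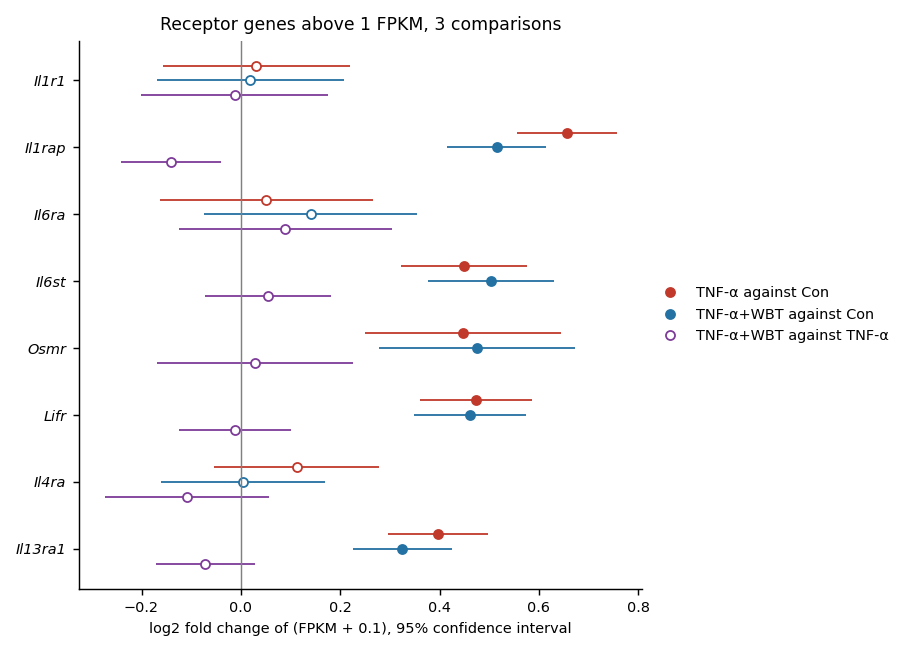
Log2 fold change of (FPKM + 0.1) with its 95% confidence interval for the 8 genes above 1 FPKM, in 3 comparisons marked by colour. Filled points have an adjusted p under 0.05. Il1rap, Il6st, Osmr, Lifr and Il13ra1 have filled points for both comparisons with Con, and every point of TNF-α+WBT against TNF-α is open.

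Ordered by level, Il6st stood first in all groups, followed by Il1rap, Il13ra1 and Lifr. In Con, Il1rap at 16.8 to 17.3 FPKM and Il13ra1 at 15.5 to 16.2 FPKM were separate, and Lifr followed at 10.8 to 11.5 FPKM. Il1r1 and Il6ra came next and could not be ordered, since their ranges overlapped in all 3 groups. Osmr was below both in Con, overlapped Il6ra with TNF-α, and was above Il4ra in every group. Il1rn and Il13ra2 stood last.

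Since the chains of a receptor act as pairs, their levels were also compared within each library. The ratio of Il1rap to Il1r1 was 1.75 to 2.21 in Con, 2.90 to 3.13 under TNF-α and 2.59 to 2.89 under TNF-α+WBT. The accessory chain thus stood further above the binding chain in every stimulated library than in any Con library. The TNF-α and TNF-α+WBT libraries did not overlap, but only narrowly (lowest 2.90, highest 2.89). Il1rap itself was not called between these groups, and the ratio was not tested between them. The ratio of Il6st to Il6ra was 5.00 to 6.31 in Con, 7.18 to 7.76 under TNF-α and 6.94 to 7.69 under TNF-α+WBT. The ratio of Il13ra1 to Il4ra was 3.19 to 3.50, 3.88 to 4.29 and 4.10 to 4.40 in the same order. In these 3 pairs the group with TNF-α did not overlap Con, for which the exact two-sided permutation test gives its smallest p, 0.1. Each of these pairs sets a gene called higher over one not called, so the ratios restate the single-gene results. The ratios among the IL-6 family chains that rose, Il6st, Lifr and Osmr, overlapped across the groups. Il6st to Lifr was 4.03 ± 0.221 in Con, 3.95 ± 0.274 under TNF-α and 4.14 ± 0.201 under TNF-α+WBT (SD, n = 3), and Lifr to Osmr was 2.07 ± 0.125, 2.10 ± 0.126 and 2.04 ± 0.0666.

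**Figure D3:**
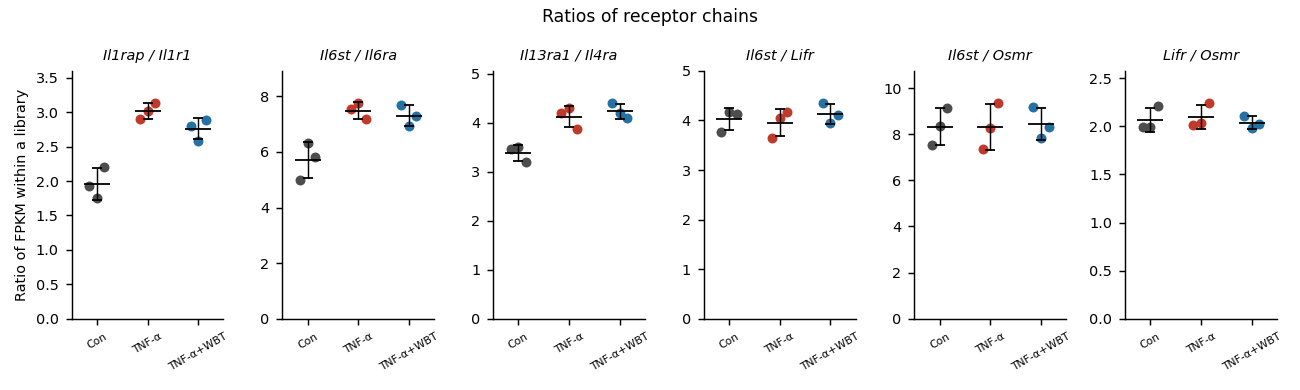
Ratio of the FPKM of 2 receptor chains within each library, with 3 points per group and a bar for the mean with the SD, on axes that start at 0. The ratios of Il1rap to Il1r1, Il6st to Il6ra and Il13ra1 to Il4ra are higher in every TNF-α library than in Con, while those among Il6st, Lifr and Osmr overlap across groups.

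The transcript table divides each gene among its annotated transcripts, and its values carry the error of that division, so they are given without a test. For each of the 5 genes that rose, 1 protein-coding transcript held most of the level. Il1rap-201 held 94.6% to 97.6% of Il1rap, Il6st-203 85.9% to 96.2% of Il6st and Lifr-203 72.1% to 82.2% of Lifr, and Il13ra1 has 1 measured transcript. Osmr-201 held 63.7% to 80.4% of Osmr, and the retained-intron transcript Osmr-203 3.21% to 23.7%. Osmr-201 averaged 3.78 ± 0.524 FPKM in Con, 5.52 ± 0.0805 under TNF-α and 5.47 ± 0.755 under TNF-α+WBT (SD, n = 3).

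Il1r1 was divided between its separate start sites, whose promoter windows are printed above. Il1r1-201, from the upstream start, had 2.63, 0.672 and 4.61 FPKM in Con, 0.0181, 0.238 and 0.261 FPKM under TNF-α and 0.407, 1.28 and 2.69 FPKM under TNF-α+WBT. Il1r1-202, from the downstream start 41506 bases away, had 5.63, 8.77 and 2.75 FPKM in Con, 8.79, 8.63 and 8.10 FPKM under TNF-α and 8.43, 7.30 and 5.42 FPKM under TNF-α+WBT. Il1r1-201 was thus lower in all TNF-α libraries than in all Con libraries, with the TNF-α+WBT libraries overlapping Con and all above TNF-α, while the level of the whole gene was not called in any comparison. The Con libraries themselves ranged from 0.672 to 4.61 FPKM in Il1r1-201, so the split is uncertain.

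Il6ra was split between Il6ra-201, at 48.5% to 70.6%, and the longer Il6ra-202, at 29.4% to 51.5%. In Il4ra the transcript Il4ra-205, annotated as a target of nonsense-mediated decay, held 41.6% to 72.3% and the coding transcript Il4ra-201 26.6% to 56.0%. The ranges of the groups overlapped for the shares of Il6ra-201 and Il4ra-205.

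**Figure D4:**
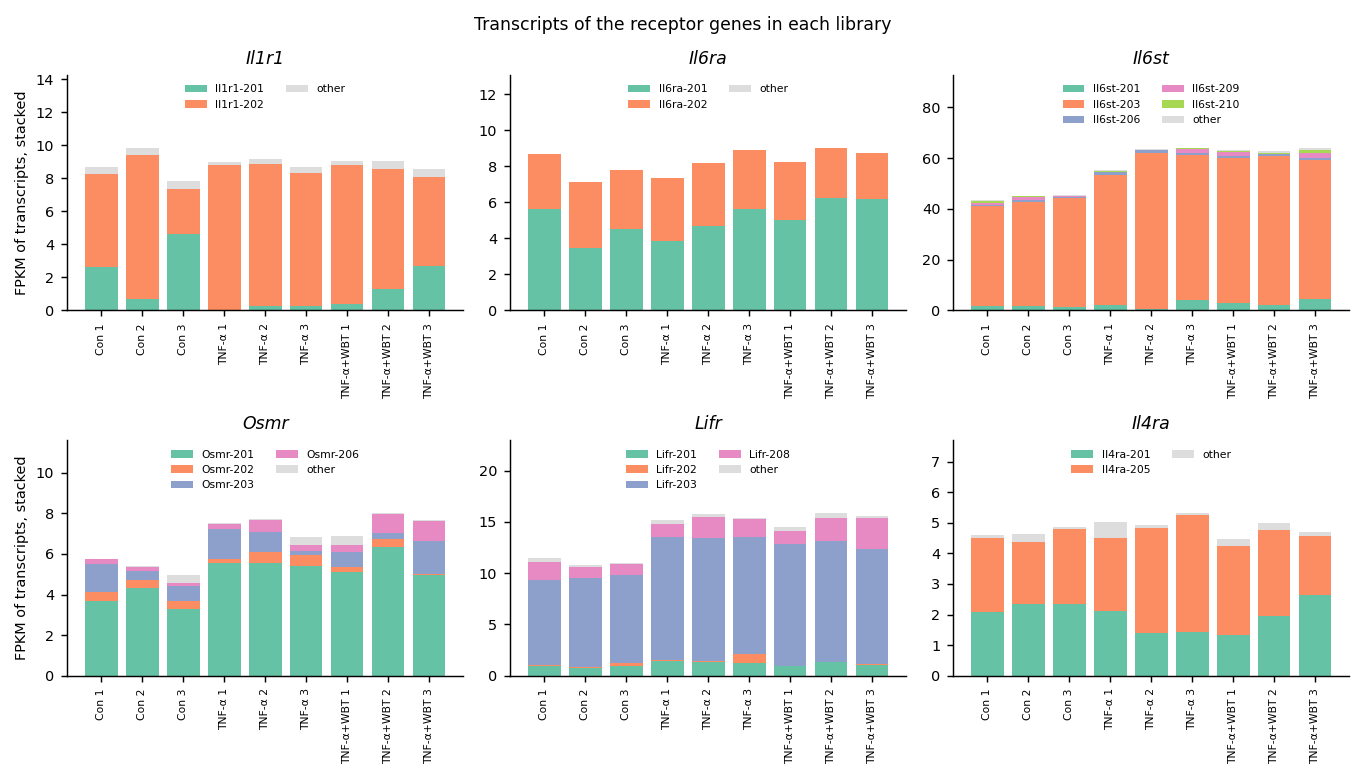
FPKM of the annotated transcripts of 6 of the genes, stacked in each of the 9 libraries, with transcripts that never reach 0.5 FPKM pooled as other. Il6st and Lifr are mostly 1 transcript throughout, and the share of Il1r1-201 varies among the Con libraries from 6.81% to 59.0%.

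The other genes of these pathways were taken from 4 lists, which hold 101 genes, 76 of them tested. In TNF-α vs. Con, 7 of the 76 were called higher and 4 lower, where 2.94% of all tested genes were called higher and 1.93% lower. These 11 calls fell to 6 without any single Con library or without TNF-α replicate 2, and to 7 without TNF-α replicate 1 or 3 or TNF-α+WBT replicate 2 or 3. Against Con, TNF-α+WBT had 4 called higher and 2 lower, against 2.31% and 1.4% of all tested genes. None was called in TNF-α+WBT vs. TNF-α by limma, and 8 had an unadjusted p under 0.05, where 6.31% of all tested genes did.

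The ligands of these receptors were mostly at or near 0. Il1b and Osm were listed at 0 in all 9 libraries, Il1a was at most 0.0481 FPKM, and Il6, Il13, Ctf1 and Il27 had group means under 0.05 FPKM. Il11 averaged 0.172 ± 0.0728 FPKM in Con, 0.0920 under TNF-α and 0.0323 under TNF-α+WBT. Lif, the ligand of Lifr, was expressed at 6.92 FPKM in Con, 8.77 under TNF-α and 9.08 under TNF-α+WBT on average and was not called (adjusted p = 0.225 by limma in TNF-α vs. Con). Clcf1, another ligand of the family, was at 6.80, 5.82 and 5.80 FPKM on average in the same order and was not called. Il4 was low, with group means of 1.40, 1.30 and 1.30 FPKM.

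In the IL-6 family list, 2 of 20 tested genes were called higher and 4 lower in TNF-α vs. Con. Over all tested genes, the shares were 2.94% and 1.93%. The median log2 fold change of the list was -0.02. Adam17, a protease that sheds Il6ra and TNF-α from the cell surface, rose from 15.5 ± 0.163 to 21.6 ± 0.908 FPKM (log2 fold change 0.47, adjusted p = 0.000464 by limma), and Jak2, a receptor-bound kinase, from 8.90 to 11.2 FPKM (adjusted p = 0.0368). The genes that fell most were Cntf, ciliary neurotrophic factor, from 4.65 ± 0.254 to 1.46 ± 0.0906 FPKM (log2 fold change -1.61, adjusted p = 0.00232), and Cntfr, its binding receptor, from 4.10 to 2.39 FPKM (adjusted p = 0.00359). Adam10 (log2 fold change -0.19) and Socs3, an inhibitor of gp130 signalling (-0.22), also fell, slightly, with adjusted p-values of 0.0404 and 0.0417 by limma. Thus the chains Il6st and Lifr, which the receptor for Cntf also uses, were higher in the same libraries in which Cntf and Cntfr were lower. Adam17, Cntf and Cntfr were called in the same directions in TNF-α+WBT vs. Con, where Jak2, Adam10 and Socs3 were not called. Tyk2, another receptor-bound kinase (log2 fold change 0.19, adjusted p = 0.373), was not called in TNF-α vs. Con.

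In the IL-1 family list, 1 of 21 tested genes was called in TNF-α vs. Con. Of all tested genes, 2.94% were called higher and 1.93% lower. Il18rap, the accessory chain of the IL-18 receptor and a relative of Il1rap, rose from 4.11 ± 0.277 to 5.88 ± 0.102 FPKM (log2 fold change 0.51, adjusted p = 0.00435 by limma) and was called in TNF-α+WBT vs. Con too. The other chain of that receptor, Il18r1, reached at most 0.0520 FPKM in any library. The kinases Irak1, Irak2, Irak4 and Map3k7, the ubiquitin ligase Peli1 and the adaptors Tollip, Tab2 and Tab3 were not called. Irak2 averaged 7.60, 11.4 and 7.76 FPKM in Con, TNF-α and TNF-α+WBT, with adjusted p-values of 0.188 for TNF-α vs. Con and 0.718 for TNF-α+WBT vs. TNF-α. None of the 15 tested genes of the IL-4 and IL-13 list was called in any comparison by limma, while 3 had an unadjusted p under 0.05 in TNF-α vs. Con, where 16.1% of all tested genes did. Stat6, which this receptor activates, averaged 58.6 FPKM in Con, 63.9 under TNF-α and 64.7 under TNF-α+WBT.

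Among other cytokine receptors, 4 of 22 tested genes were called higher and none lower in TNF-α vs. Con. Over all tested genes, the shares were 2.94% and 1.93%. Ifngr2, the signalling chain of the interferon-γ receptor, rose from 11.1 ± 0.990 to 27.4 ± 0.409 FPKM (log2 fold change 1.29, adjusted p = 9.26e-06 by limma), and Ifngr1, the binding chain, from 31.5 to 47.7 FPKM (adjusted p = 0.0461). Il3ra rose from 3.77 to 5.58 FPKM (adjusted p = 0.00371 by limma) and Il17rc from 33.6 to 39.8 FPKM (adjusted p = 0.0415). The chains that pair with Il3ra, Csf2rb and Csf2rb2, were at or near 0, at most 0.0204 FPKM in any library. Il10rb, Csf2ra, Il12rb1, Il17rd, Il20rb and Ifnar2 were not called. The median log2 fold change of this list was 0.22, and of the IL-4 and IL-13 list 0.19. TNF-α+WBT vs. Con called 2 of these 22 tested receptors higher and none lower. Over all tested genes, the shares in that comparison were 2.31% and 1.4%.

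**Figure D5:**
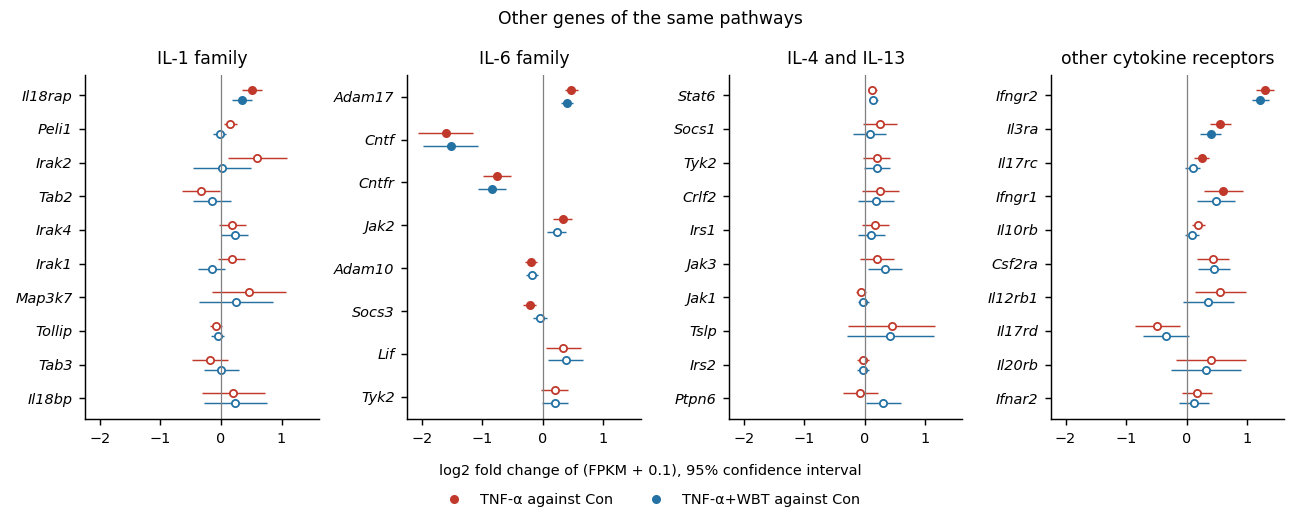
Log2 fold change of (FPKM + 0.1) with its 95% confidence interval for up to 10 genes of each of 4 pathway lists, in TNF-α against Con and TNF-α+WBT against Con. Filled points have an adjusted p under 0.05. Cntf and Cntfr lie to the left of 0 and Adam17, Il18rap, Il3ra and Ifngr2 to the right in both comparisons.

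The genes with the most similar profiles were found for each of the 8 expressed genes by the root mean square difference over the 9 libraries of log2(FPKM + 0.1) less the Con mean, among 12686 genes that averaged at least 1 FPKM. Smaller values mean a closer match, and no test was made. Nearest to Il1rap were the collagen gene Col6a1 (0.040), Col8a1 (0.056) and Arl4c (0.060). Nearest to Il6st were Vwa5a (0.055), Sema3b (0.065) and Agrn (0.074), with Lifr in rank 5 (0.075). Vwa5a was also in rank 3 for Lifr (0.047), behind Ctps (0.039) and Bid (0.044). Osmr was closest to the stress-responsive genes Junb (0.058) and Gadd45b (0.058), with Lifr in rank 3 (0.063). Ifi203 (0.036), Plgrkt (0.037) and Pdgfb (0.038) were nearest to Il13ra1. The chains that were not called were near genes of similarly small differences, Il1r1 near Mtmr9 (0.043), Appl1 (0.047) and Mrps35 (0.047), Il6ra near Ralgapb (0.053), Ppp2r2d (0.056) and Gm14303 (0.059), and Il4ra near Maml2 (0.037), Reep4 (0.038) and Rbm45 (0.039).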

How the data were processed

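Poly(A) RNA libraries were sequenced on an Illumina NovaSeq by the study, whose workflow lists HISAT2, StringTie and Ballgown. Versions, genome build and annotation are not given in the sources used here, and no strand setting is stated. The authors deposited FPKM values per gene and per transcript, normalised for length and library total. All 9 libraries were mapped by title. No 2 libraries held identical values. The study calls the libraries biological replicates, but the labels name no separate cultures, so p-values measure the spread between libraries, which may be technical.

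Depth was estimated from the spacing of low values in 10717 genes, with 1991 to 2188 values scored per library. Of these values, 53.9% to 56.8% lay within 0.1 of a whole fragment, where 20% would by chance. The depth was chosen by this same share, so the 20% is no strict benchmark. Of 56289 genes, 97.97% matched a symbol. Positions come from GENCODE M21 (GRCm38) and promoter windows from RefSeq (GRCm38.p6).

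Genes were kept where 3 or more libraries had a value above 0 (25417 genes), and log2(FPKM + 0.1) was tested by limma 3.58.1 in R 4.3.3 (lmFit, eBayes with an intensity trend, 9 libraries, 3 comparisons), with Benjamini-Hochberg adjustment over all tested genes and calls at 0.05. The test was checked on data simulated with normal errors on the log2 scale, which do not model values listed at 0. The planted changes were larger than the differences of the 8 expressed genes between TNF-α+WBT and TNF-α, so the check does not cover those. Tables and figures were made with Python 3.11.15, pandas 2.3.3, scipy 1.17.1 and matplotlib 3.10.9. Alternatives covered the pseudocount, filter, trend, libraries in the model, scaling, transcript sums, a replicate block and each library left out.

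The 10 genes and the gene lists were chosen with earlier results of these data known, and 3 list genes are not reported here. Named were the 10 genes, up to 10 genes per pathway list that were called or averaged at least 1 FPKM, by smallest p in TNF-α vs. Con, the ligands, the 3 genes nearest in profile, and the markers. The partner chains of Il18rap and Il3ra were named in addition, after their values were seen.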

Additional observations from a re-analysis of the deposited data

How the results depend on the processing

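Across 19 alternative fits of the 24 log2 fold changes of the 8 expressed genes, 431 of 456 values kept their direction and their side of the threshold. The 9 that lost the call were all of Osmr, and the 16 that changed direction were of values that had not been called. In TNF-α vs. Con the number of the 10 genes called ranged from 4 to 5 as libraries were left out, and likewise in TNF-α+WBT vs. Con. In a fit of only the 2 groups compared, it was 4 in the latter. In TNF-α+WBT vs. TNF-α it was 0 throughout by limma.

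As libraries were left out, log2 fold changes that changed sign ranged, in TNF-α vs. Con, from -0.0499 to 0.116 for Il1r1 and -0.0159 to 0.123 for Il6ra, and in TNF-α+WBT vs. Con from -0.0619 to 0.104 for Il1r1 and -0.0367 to 0.0424 for Il4ra. For TNF-α+WBT vs. TNF-α they ranged from -0.0340 to 0.0144 for Il1r1, -0.0141 to 0.0915 for Il6st, -0.0223 to 0.0899 for Osmr and -0.0379 to 0.0250 for Lifr. Il4ra in TNF-α+WBT vs. Con was at -0.00121 with median centring and -0.0140 with quantile normalization.

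The 11 pathway genes called in TNF-α vs. Con became 6 without the intensity trend, 6 in a fit of only the 2 groups, and 6 to 11 as libraries were left out. The single gene called in TNF-α+WBT vs. TNF-α became 11 genes at a pseudocount of 0.01, 7 without the trend, 2 in a fit of only the 2 groups, 2 with transcript sums and 0 to 11 as libraries were left out. The 942 genes called in TNF-α+WBT vs. Con became 588 to 817 as libraries were left out. The cause was not tested, other than that leaving out a library leaves fewer samples.

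With the replicate number as a block, 5, 0 and 5 of the 10 genes were called in TNF-α vs. Con, TNF-α+WBT vs. TNF-α and TNF-α+WBT vs. Con, 7 pathway genes in the first, and 0 of all genes in the second. The correlation of same-numbered libraries was -0.07 to 0.10 over 9 pairs, none above 0.1, so the numbers were not taken to pair libraries.

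With 3 libraries a group, differences of the size of those between TNF-α+WBT and TNF-α were not resolved, and genes under about 3 fragments could not be compared.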
